A study of Arabidopsis thaliana with 6 samples.

Results

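A set of 10 kinesin genes of cell division is described here in callus of Arabidopsis thaliana: ATK1, ATK5, ATK4, HIK, TES, PAKRP1, PAKRP1L, PAKRP2, POK1 and POK2. They were chosen by a list of locus codes that sets no threshold on measured values, with earlier results of these data known, and all 10 of 10 were found among the 31305 loci of the expression table. Callus is the unorganised, dividing tissue that plant explants form on a medium with auxin and cytokinin. Hypocotyls of seedlings aged 1 week were cut and kept for 7 days on callus-inducing medium, and messenger RNA of the bulk callus was then sequenced. The 6 libraries comprised 3 labelled rap2.12-2, a line named for the RAP2.12 gene, and 3 from Col-0, the wild type, and the series calls the replicates biological. The labels give neither the nature of the rap2.12-2 allele nor the number of plants behind a library. RAP2.12 encodes a group VII ethylene response factor, a transcription factor that is degraded when oxygen is present. The question addressed here is whether transcripts of these motors differ in level between the genotypes.

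Kinesins are motor proteins that walk along microtubules and use ATP as fuel. Flowering plants divide without centrosomes, so kinesins that crosslink and slide microtubules help to focus the spindle. After chromosomes have separated, the phragmoplast, an array of microtubules that grows outward from the cell centre, delivers vesicles that fuse into the new cell plate, and further kinesins organise this array, drive its expansion and steer it to the cortex. Transcripts of such genes are typical of cells in G2 and M phase. In bulk tissue, fewer dividing cells and less transcript per cell cannot be told apart.

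The RAP2.12 transcript was more abundant in the libraries labelled rap2.12-2 than in Col-0. It measured 360, 363 and 465 TPM (a transcript abundance scaled to length and to the library total) in the libraries labelled rap2.12-2, against 122.6, 140 and 161 TPM in Col-0, a ratio of means of 2.80. The log2 fold change was 1.48 ± 0.17 (SE), with an adjusted p of 0.026 from limma, a linear model fitted to log2(TPM + 1) across all genes, and an exact two-sided permutation p of 0.10, the smallest that 3 against 3 allows. The call was lost, with an adjusted p of 0.053 to 0.22 in limma, when Col-0 replicate 1, 2 or 3, or the library labelled rap2.12-2 replicate 2 or 3, was left out. TPM keeps no sequencing depth, so the depth is unknown. Values summed to between 984523 and 992724 TPM in 5 libraries and to 845341 in Col-0 replicate 1, where organelle genes held 12005 TPM against 157 to 537 elsewhere. Of the callus and root meristem markers, 8 of 9 averaged at least 1 TPM. The 9 summed to 264 to 384 TPM in libraries labelled rap2.12-2 and to 403 to 454 TPM in Col-0. The 8 tested differed in sign: by log2 fold change 5 were negative and 3 positive (median -0.075), or 2 negative and 6 positive with a median of 0.11 when replicate 1 labelled rap2.12-2 was left out, and 7 negative with a median of -0.14 when Col-0 replicate 1 was. The 4 xylem markers summed to 240 to 252 TPM in libraries labelled rap2.12-2 and to 149 to 186 TPM in Col-0. The 2 epidermis markers summed to 7.67 to 20.7 TPM in libraries labelled rap2.12-2 and to 18.2 to 27.2 TPM in Col-0. The 3 mesophyll markers summed to 1.08 to 1.96 TPM in libraries labelled rap2.12-2 and to 2.00 to 2.99 TPM in Col-0, with LHCB2.1 at 0 in 4 of 6 libraries. The part of these cell types in the kinesin values was not tested.

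All 10 kinesins were expressed in every library, and none passed the test for a difference between the genotypes. Of the 10, 0 had an adjusted p under 0.05 in limma, against 0.0698% of the 18629 genes tested, and 0 had an unadjusted p under 0.05, against 6.84% of those genes. The log2 fold change was negative for 9 of the 10 and positive for TES (0.047), which turned negative (-0.030) when nuclear genes were rescaled to one total, and 53.3% of all genes tested were negative. The median over the 10 was -0.31, and over all genes -0.021. The pattern that stood out in the values was one of a single library: each of the 10 had its lowest value in the library labelled rap2.12-2 replicate 1, as did 43.0% of all genes tested. The median kinesin log2 fold change was 0.015 with that library left out, and -0.49 with replicate 2 of the same line left out.

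**Figure D1:**
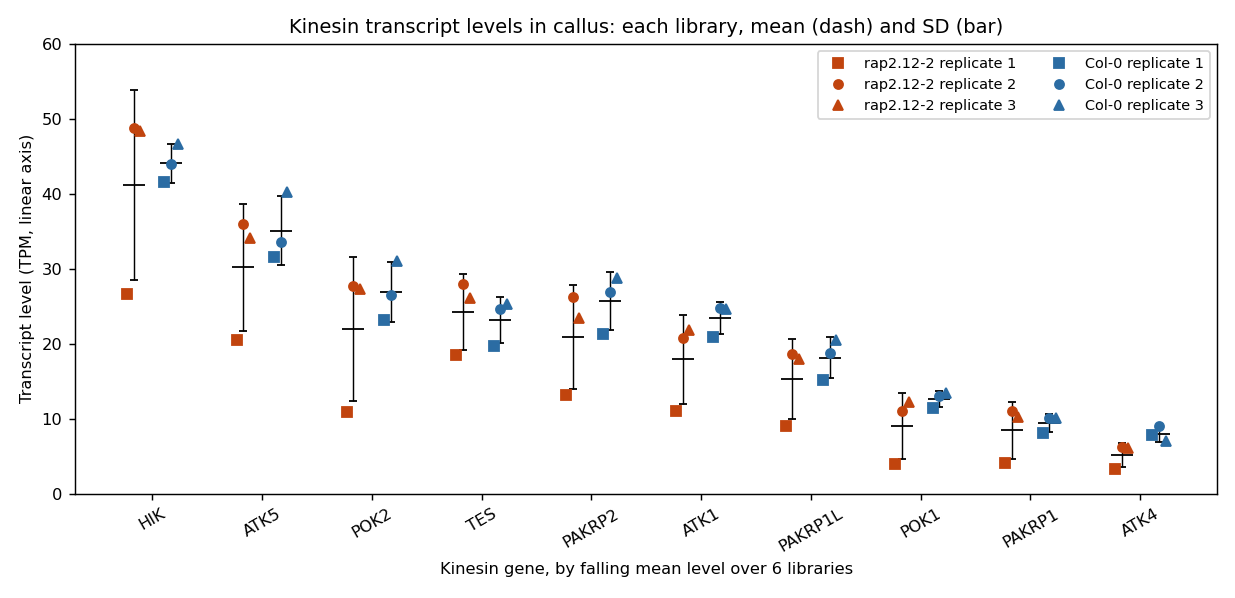
Expression of the 10 kinesins in TPM (linear axis) in each library, with libraries labelled rap2.12-2 left of Col-0 in each gene, points for libraries, dashes for group means and bars for the SD. One of the 3 points labelled rap2.12-2, replicate 1, lies at the bottom of every gene.

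Among the motors of the spindle, ATK1 and ATK5 are kinesin-14 proteins that walk to the minus ends of microtubules and gather them at spindle poles, and ATK1 is needed for the spindle of male meiosis. ATK1 (AT4G21270, chr4:11329319-11334168, minus strand, 17 exons) measured 11.1, 20.8 and 21.9 TPM in libraries labelled rap2.12-2, against 21.0, 24.7 and 24.6 TPM in Col-0. Its group means were 17.9 ± 5.95 TPM in libraries labelled rap2.12-2 and 23.4 ± 2.15 TPM in Col-0 (SD, n = 3 each). Replicate 1 labelled rap2.12-2 was 51.0% below the mean of the other 5 libraries, and replicate 3 of that line lay above Col-0 replicate 1, so the groups overlapped. ATK1 had a log2 fold change of -0.42 (95% interval -1.0 to 0.16, limma adjusted p = 0.84), and -0.13 with replicate 1 labelled rap2.12-2 left out.

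ATK5 (AT4G05190, chr4:2675064-2680214, plus strand, 18 exons) measured 20.5, 36.0 and 34.1 TPM in libraries labelled rap2.12-2, against 31.5, 33.6 and 40.2 TPM in Col-0. Replicates 2 and 3 labelled rap2.12-2 lay within the range of Col-0, and replicate 1 lay 41.6% below the mean of the other 5. For ATK5 the log2 fold change was -0.24 (95% interval -0.77 to 0.28, limma adjusted p = 0.88), and 0.0056 with replicate 1 labelled rap2.12-2 left out. The annotation places 492 bases of CRK25, a receptor-like kinase gene, on the opposite strand of ATK5, and whether the counting used strand is not given in the sources used here.

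ATK4 is a kinesin-14 with a calponin homology domain, a fold that binds actin in other proteins. It was the lowest of the 10 kinesins and the only one of them whose groups did not overlap, against 12.7% of all genes tested in either direction and 6.03% lower in the libraries labelled rap2.12-2. ATK4 (AT5G27000, chr5:9497939-9503173, plus strand, 19 exons) measured 3.31, 6.16 and 6.03 TPM in libraries labelled rap2.12-2, against 7.75, 8.96 and 6.99 TPM in Col-0. Group means were 5.17 ± 1.61 TPM in libraries labelled rap2.12-2 and 7.90 ± 0.994 TPM in Col-0 (SD, n = 3 each). The highest library labelled rap2.12-2, at 6.16 TPM, lay below the lowest Col-0 library, at 6.99 TPM. ATK4 had a log2 fold change of -0.56 (95% interval -1.14 to 0.019), with a limma p of 0.056 before adjustment and an adjusted p of 0.75. It was -0.32 (95% interval -0.77 to 0.13) with replicate 1 labelled rap2.12-2 left out. Over all alternative fits the unadjusted limma p of ATK4 ran from 0.033 to 0.15, and its lowest adjusted p was 0.39.

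The number of kinesins with separate groups moved with single libraries. It was 4 with replicate 1 labelled rap2.12-2 left out, namely ATK4 lower and HIK, TES and PAKRP1 higher in the libraries labelled rap2.12-2, where 22.4% of all genes were separate. It was 3, all lower, without replicate 3 of that line (ATK1, ATK4 and POK1), where 11.0% of all genes were separate and lower. It was 5, all lower, without Col-0 replicate 1 (ATK1, ATK4, PAKRP1L, PAKRP2 and POK1), where 17.3% of all genes were separate and lower. ATK4 was bound to be counted in each of these, since groups that are separate with all 6 libraries stay separate when 1 is left out.

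HIK and TES are kinesin-7 proteins of the phragmoplast. HIK (HINKEL, also called AtNACK1) and TES (TETRASPORE, also called AtNACK2) bind and activate MAP kinase kinase kinases of the ANP type, the start of a cascade that lets the phragmoplast expand. TES is needed for cytokinesis after male meiosis. HIK was the highest of the 10 kinesins. HIK (AT1G18370, chr1:6319450-6324378, minus strand, 15 exons) measured 26.6, 48.8 and 48.3 TPM in libraries labelled rap2.12-2, against 41.6, 43.9 and 46.7 TPM in Col-0. Replicates 2 and 3 labelled rap2.12-2 were above all 3 Col-0 libraries and replicate 1 below all of them, with means of 41.2 ± 12.7 TPM in libraries labelled rap2.12-2 and 44.1 ± 2.57 TPM in Col-0 (SD, n = 3 each). HIK had a log2 fold change of -0.14 (95% interval -0.68 to 0.39, limma adjusted p = 0.91), and 0.14 with replicate 1 labelled rap2.12-2 left out.

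TES (AT3G43210, chr3:15190786-15196215, plus strand, 14 exons) measured 18.5, 28.0 and 26.1 TPM in libraries labelled rap2.12-2, against 19.7, 24.6 and 25.2 TPM in Col-0. Its deficit in replicate 1 labelled rap2.12-2 was the smallest of the 10, at 25.2% below the mean of the other 5 libraries. TES had a log2 fold change of 0.047 (95% interval -0.41 to 0.51, limma adjusted p = 0.97), and 0.22 with replicate 1 labelled rap2.12-2 left out.

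The midzone of the phragmoplast holds the kinesin-12 pair PAKRP1 and PAKRP1L, which act redundantly in cytokinesis of the male gametophyte. PAKRP1 (AT4G14150, chr4:8158436-8165214, minus strand, 16 exons) measured 4.10, 11.1 and 10.2 TPM in libraries labelled rap2.12-2, against 8.06, 10.1 and 10.1 TPM in Col-0. PAKRP1L (AT3G23670, chr3:8519136-8525289, plus strand, 16 exons, KINESIN-12B in the annotation) measured 9.08, 18.7 and 18.0 TPM in libraries labelled rap2.12-2, against 15.1, 18.8 and 20.5 TPM in Col-0. Both genes were lowest in replicate 1 labelled rap2.12-2, by 58.6% for PAKRP1 and by 50.1% for PAKRP1L against the mean of the other 5 libraries. The log2 fold change was -0.24 for PAKRP1 (95% interval -0.98 to 0.51) and -0.29 for PAKRP1L (95% interval -0.91 to 0.34), with limma adjusted p values of 0.90 and 0.88. With replicate 1 labelled rap2.12-2 left out it was 0.16 for PAKRP1 and 0.025 for PAKRP1L.

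PAKRP2 is a plus-end directed kinesin found on vesicles at the phragmoplast. PAKRP2 (AT4G14330, chr4:8244053-8247494, plus strand, 6 exons, named by locus alone in the annotation) measured 13.1, 26.2 and 23.4 TPM in libraries labelled rap2.12-2, against 21.3, 26.9 and 28.8 TPM in Col-0. Replicates 2 and 3 labelled rap2.12-2 lay within the Col-0 range. PAKRP2 had a log2 fold change of -0.33 (95% interval -0.92 to 0.27, limma adjusted p = 0.87), and -0.038 with replicate 1 labelled rap2.12-2 left out.

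POK1 and POK2 are kinesin-12 proteins that stay at the cortical division zone, where they mark the plane that the phragmoplast must reach, and POK2 also sits in the phragmoplast. They have the longest transcripts of the 10, at 6787 bases for POK1 and 8663 for POK2, and their deficits in replicate 1 labelled rap2.12-2 were the largest. POK1 (AT3G17360, chr3:5935880-5946540, plus strand, 34 exons) measured 4.0, 11.0 and 12.2 TPM in libraries labelled rap2.12-2, against 11.4, 13.0 and 13.5 TPM in Col-0. POK2 (AT3G19050, chr3:6577724-6590253, plus strand, 37 exons) measured 10.8, 27.6 and 27.3 TPM in libraries labelled rap2.12-2, against 23.1, 26.5 and 31.1 TPM in Col-0. The library labelled rap2.12-2 replicate 1 lay 67.3% below the mean of the other 5 for POK1 and 60.1% below for POK2. Log2 fold changes were -0.56 for POK1 (95% interval -1.35 to 0.23) and -0.38 for POK2 (95% interval -1.14 to 0.37), with limma adjusted p values of 0.85 and 0.87. Without that library it was -0.12 for POK1 and 0.039 for POK2. POK2 shares 70 bases with a long non-coding RNA gene on the same strand.

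By mean TPM over all 6 libraries the order was HIK (42.6), ATK5 (32.7), POK2 (24.4), TES (23.7), PAKRP2 (23.3), ATK1 (20.7), PAKRP1L (16.7), POK1 (10.8), PAKRP1 (8.94) and ATK4 (6.53). The neighbours HIK and ATK5, ATK5 and POK2, PAKRP2 and ATK1, ATK1 and PAKRP1L, PAKRP1L and POK1, and PAKRP1 and ATK4 kept this order in 6 of 6 libraries. POK2 was above TES in 4 libraries, TES above PAKRP2 in 3, and POK1 above PAKRP1 in 4, so these neighbours were not separated by the libraries. The levels stood between the 22.3rd percentile of all genes tested (ATK4) and the 73.9th (HIK). Summed, the 10 kinesins made 121, 234 and 228 TPM in libraries labelled rap2.12-2, against 201, 231 and 248 TPM in Col-0.

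Of the 10 kinesins, 8 form 4 pairs of related genes, and the ratio within a pair does not depend on how libraries are scaled. The ATK5 to ATK1 ratio was 1.85, 1.73 and 1.56 in the libraries labelled rap2.12-2, against 1.51, 1.36 and 1.63 in Col-0. The HIK to TES ratio was 1.44, 1.74 and 1.85 in the libraries labelled rap2.12-2, against 2.11, 1.78 and 1.85 in Col-0. The POK2 to POK1 ratio was 2.71, 2.52 and 2.24 in the libraries labelled rap2.12-2, against 2.02, 2.04 and 2.31 in Col-0. ATK5, HIK, PAKRP1L and POK2 were the higher partner in all 6 libraries. The PAKRP1L to PAKRP1 ratio was 2.21, 1.69 and 1.77 in the libraries labelled rap2.12-2, against 1.87, 1.86 and 2.02 in Col-0. Its replicates 2 and 3 labelled rap2.12-2 lay below all 3 Col-0 libraries, and replicate 1 above all of them. Means of this ratio were 1.89 ± 0.28 in the libraries labelled rap2.12-2 and 1.92 ± 0.086 in Col-0 (SD, n = 3 each). Replicate 1 was the highest or lowest library labelled rap2.12-2 in each of the 4 pairs. In exact two-sided permutation tests the p was 0.20 for 3 pairs and 0.80 for PAKRP1L and PAKRP1, or 0.27 and 0.80 adjusted over the 4 pairs, where 0.10 is the smallest possible. Coding sequences were identical at 82.6% of aligned bases for ATK1 and ATK5, 81.0% for PAKRP1 and PAKRP1L, 65.0% for HIK and TES and 61.1% for POK1 and POK2. None of the 10 shared a stretch of 100 bases or more at 95% identity with another place in the genome.

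**Figure D2:**
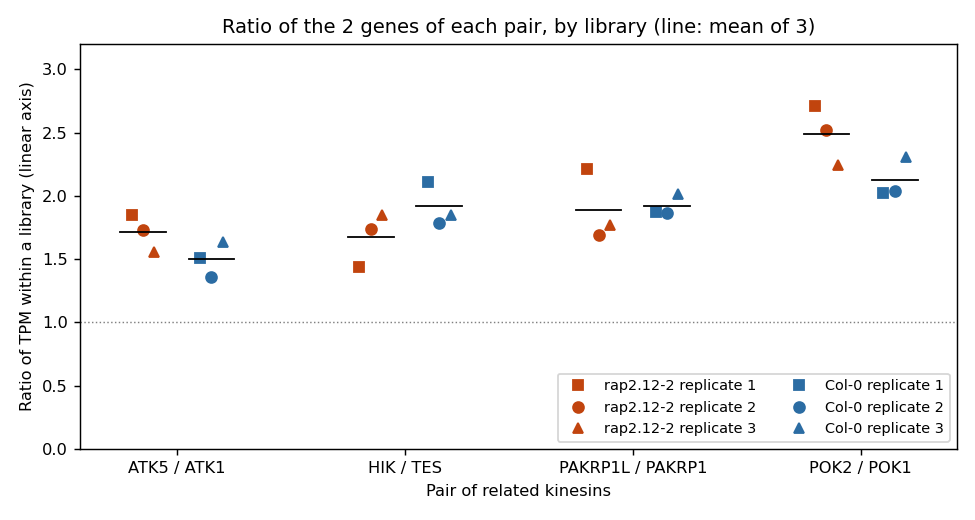
Ratio of TPM within each of the 4 paralogue pairs, libraries labelled rap2.12-2 left of Col-0, with 1 point per library and bars for means. All ratios lie above 1, and the groups overlap in each pair.

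Promoter sequence was examined because genes of G2 and M phase often carry the mitosis-specific activator motif, whose core AACGG is bound by MYB3R transcription factors. The window was 300 bases upstream of the annotated start of each gene, read on both strands in TAIR10.1. AACGG or its reverse complement CCGTT occurred in 7 of the 10 windows, once in ATK4, POK1 and POK2, in 2 copies in HIK, TES and PAKRP1 and in 3 copies in PAKRP1L. Of 27443 promoters of the same length, 23.4% held at least 1 copy and 4.53% held 2 or more. These letters did not occur in the windows of ATK1, ATK5 and PAKRP2. The windows of ATK1 and PAKRP2 each overlap a neighbouring gene on the opposite strand. That of POK2 overlaps the long non-coding RNA gene on its own strand. The E2F-type motif TTCCCGC occurred in 0 of the 10 windows and in 1.34% of all promoters. A match is a description of sequence and does not show binding. The 4 windows with 2 or more copies are printed 5′ to 3′ on the strand of the gene, with the motif in capitals, and end at the base before the annotated start. They lie at chr1:6324379-6324678 (HIK, minus strand), chr3:15190486-15190785 (TES, plus strand), chr4:8165215-8165514 (PAKRP1, minus strand) and chr3:8518836-8519135 (PAKRP1L, plus strand).
HIK: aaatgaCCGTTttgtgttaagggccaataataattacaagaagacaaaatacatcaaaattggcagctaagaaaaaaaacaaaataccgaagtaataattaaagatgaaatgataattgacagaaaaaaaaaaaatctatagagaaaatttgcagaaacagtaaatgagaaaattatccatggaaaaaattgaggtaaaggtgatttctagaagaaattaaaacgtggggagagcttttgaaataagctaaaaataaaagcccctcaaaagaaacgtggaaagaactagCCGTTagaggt
TES: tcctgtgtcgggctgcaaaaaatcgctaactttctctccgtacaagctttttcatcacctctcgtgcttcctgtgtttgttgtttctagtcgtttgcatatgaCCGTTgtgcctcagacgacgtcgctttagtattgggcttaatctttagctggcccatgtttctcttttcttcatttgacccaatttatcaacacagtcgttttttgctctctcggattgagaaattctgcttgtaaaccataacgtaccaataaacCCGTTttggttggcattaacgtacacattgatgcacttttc
PAKRP1: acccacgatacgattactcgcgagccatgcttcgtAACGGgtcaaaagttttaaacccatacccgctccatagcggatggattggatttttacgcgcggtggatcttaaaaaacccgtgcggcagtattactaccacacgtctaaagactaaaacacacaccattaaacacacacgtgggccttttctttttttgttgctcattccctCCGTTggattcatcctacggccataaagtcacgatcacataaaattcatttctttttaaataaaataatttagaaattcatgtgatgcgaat
PAKRP1L: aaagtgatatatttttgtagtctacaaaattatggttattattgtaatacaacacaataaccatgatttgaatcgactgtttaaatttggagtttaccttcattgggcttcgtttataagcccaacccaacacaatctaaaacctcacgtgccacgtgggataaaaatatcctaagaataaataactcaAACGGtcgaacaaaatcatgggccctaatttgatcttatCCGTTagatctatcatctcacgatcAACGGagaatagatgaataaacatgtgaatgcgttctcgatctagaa
The copies began 294 and 11 bases upstream of the start in HIK, 197 and 41 in TES, 265 and 92 in PAKRP1, and 111, 72 and 47 in PAKRP1L.

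The deficit of the library labelled rap2.12-2 replicate 1 varied with transcript length across all genes. The 10 kinesins are long, with a median of 3492 bases against 1723 for the genes tested, and 12.6% of those genes reach the length of the shortest kinesin. Relative to the mean of the other 5 libraries on the log2(TPM + 1) scale, replicate 1 stood at a median of 0.27 for the 2803 genes with up to 1000 bases. The median was -0.15 for the 4570 genes of over 1500 and up to 2000 bases, and -0.68 for the 1408 genes of over 3000 and up to 4000 bases. It was -1.16 for the 275 genes over 5000 bases, of which 97.8% were lowest in replicate 1. Spearman's rho between length and this deviation, across 18602 genes, which are not independent replicates, was -0.56 in that library and between -0.010 and 0.0084 in each of the other 5.

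Genes of the same length as the kinesins were low in the same library. The median kinesin deviation in the library labelled rap2.12-2 replicate 1 was -0.92, with TES at -0.39 and POK1 at -1.40 at the extremes. The 2323 genes with transcripts from 2926 to 8663 bases, the range of the 10, had a median of -0.76 with quartiles of -1.03 and -0.51, and 91.2% of them were lowest in that library. The cause of the trend was not tested.

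**Figure D3:**
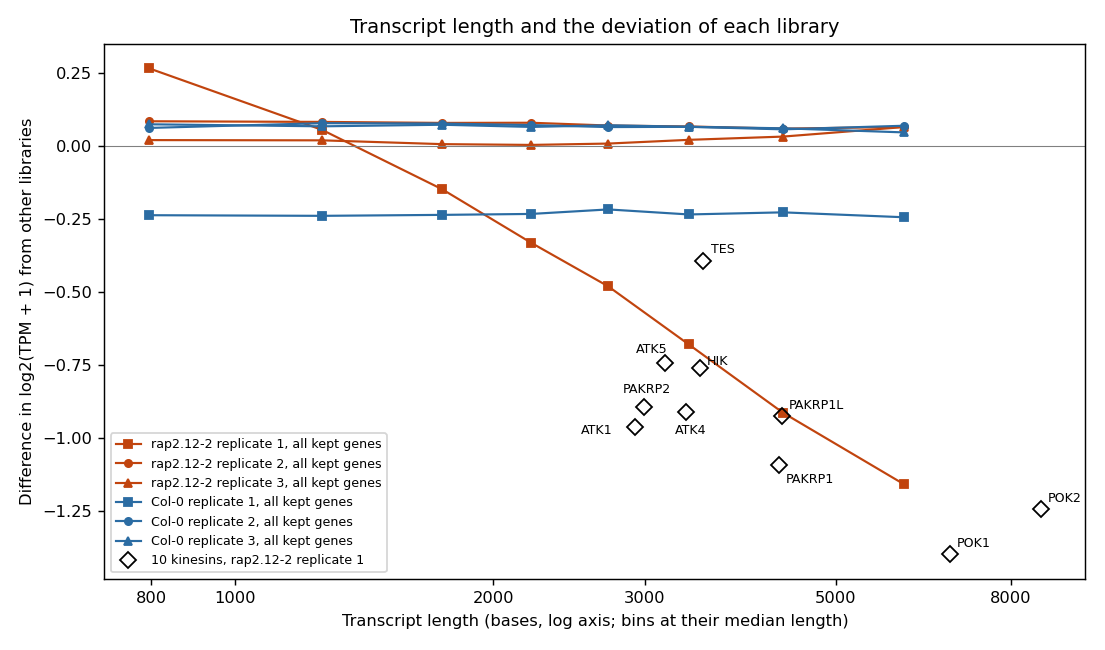
Median deviation of each library from the mean of the others, log2(TPM + 1), by transcript length in bases, with the 10 kinesins of the library labelled rap2.12-2 replicate 1 marked. The line of that library reaches -1.16 for transcripts over 5000 bases, while the lines of the other 5 stay level, that of Col-0 replicate 1 below 0.

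Removing the trend with length from each library, a step added after the data were seen, brought the kinesin libraries closer together. Genes that follow the trend are bound to draw together under this step, and the range over all genes is not given here. The median range across the 6 libraries was 0.30 after the step and 1.09 before it, on the log2(TPM + 1) scale, and the median width of the 95% interval was 0.53 after and 1.18 before. Replicate 1 labelled rap2.12-2 then stood at a median of -0.15 against the other 5, and 5 of the 10 kinesins were lowest there, against 27.9% of all genes. The median log2 fold change of the 10 was -0.065, with 6 negative and 4 positive, and limma called 0 of 10, against 0.204% of all genes. Before adjustment, ATK4 had a p of 0.038 (log2 fold change -0.39, limma adjusted p = 0.39) and ATK1 a p of 0.046 (-0.28, limma adjusted p = 0.40). The groups did not overlap for ATK1, ATK4 and POK1, which were lower in the libraries labelled rap2.12-2, and for TES, which was higher, against 19.3% of all genes.

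With replicate 1 labelled rap2.12-2 left out instead, 4 kinesins were negative and 6 positive, limma called 0 of 10 against 0.0644% of all genes, and the 95% intervals of the 10 spanned -0.77 to 0.60. The remaining libraries labelled rap2.12-2 had a summed kinesin level of 231 TPM on average, against 226 ± 23.9 TPM in Col-0 (SD, n = 3). That Col-0 mean includes replicate 1 at 201 TPM, below the 231 and 248 TPM of Col-0 replicates 2 and 3. With both libraries numbered 1 left out, 7 kinesins were negative and 3 positive, with a median log2 fold change of -0.080.

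**Figure D4:**
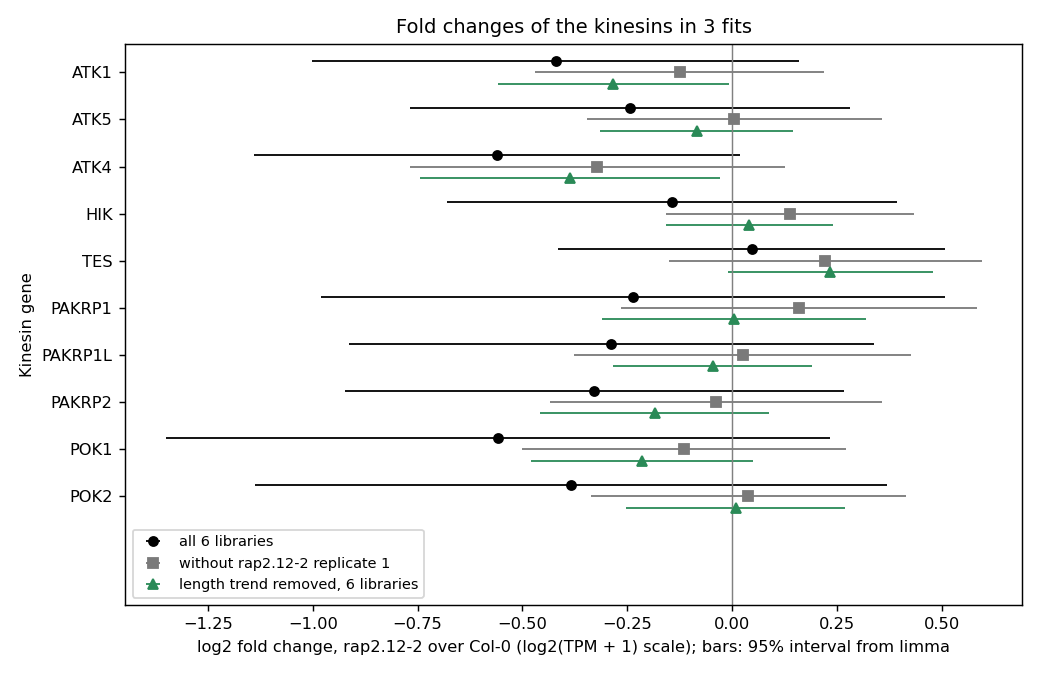
log2 fold change of each kinesin, rap2.12-2 over Col-0, with 95% intervals from limma, for all 6 libraries, with replicate 1 labelled rap2.12-2 left out, and with the length trend removed. The intervals are narrower in the last 2 fits, and the fold changes of most kinesins lie nearer 0.

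Other genes that work with these kinesins were taken from 11 lists, of which 113 of 114 listed genes were tested. Limma called 0 of the 113, against 0.0698% of all genes, and 3.54% had an unadjusted p under 0.05, against 6.84% of all genes. The 60 genes lowest in the library labelled rap2.12-2 replicate 1 made up 53.1% of the 113, against 43.0% of all genes. Of the cascade downstream of HIK, 5 of 7 genes were negative, with a median log2 fold change of -0.16. With replicate 1 labelled rap2.12-2 left out, 4 were negative with a median of -0.052, and with Col-0 replicate 1 left out, 7 were negative with a median of -0.24. MKK6, the kinase kinase of the cascade, measured 46.6 ± 4.36 TPM in libraries labelled rap2.12-2 and 45.0 ± 6.72 TPM in Col-0. MPK11, a MAP kinase related to MPK4, measured 1.76 ± 1.19 TPM in libraries labelled rap2.12-2 and 6.36 ± 4.38 TPM in Col-0, with a limma adjusted p of 0.54. The phragmoplast kinases RUK and TIO, whose transcripts have a median of 4631 bases, had a median log2 fold change of -0.42 and were both lowest in the library labelled rap2.12-2 replicate 1, without which their median was -0.052.

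With all 6 libraries, genes that bundle microtubules or build the cell plate showed medians smaller in size than that of the 10 kinesins (-0.31). That order did not hold with replicate 1 labelled rap2.12-2 left out, where the kinesin median was 0.015. Of the MAP65 family, which crosslinks antiparallel microtubules, 8 of 9 genes were tested, with 5 negative and a median of -0.078. MAP65-4, at 19.1 ± 4.92 TPM in libraries labelled rap2.12-2 and 25.8 ± 4.80 TPM in Col-0, had the smallest p (limma adjusted p = 0.81). The 11 genes of cell plate formation had 6 negative and a median of -0.11, and the 10 genes of the division plane had 6 negative and a median of -0.091. The 21 spindle assembly genes had 12 negative and a median of -0.20. MOR1, a microtubule polymerase of 6897 bases, measured 53.5 ± 27.4 TPM in libraries labelled rap2.12-2 and 60.7 ± 7.62 TPM in Col-0, and replicate 1 labelled rap2.12-2 was 0.342 of the mean of the other 5. MAD2, a spindle checkpoint gene of 1074 bases, measured 111 ± 8.82 TPM in libraries labelled rap2.12-2 and 110 ± 17.3 TPM in Col-0, and its replicate 1 ratio was 1.11. The 6 checkpoint genes had a median of -0.040. With replicate 1 labelled rap2.12-2 left out, the medians were 0.11 for MAP65, 0.065 for cell plate formation, 0.061 for the division plane, 0.022 for spindle assembly and 0.051 for the checkpoint. With Col-0 replicate 1 left out, they were -0.18 for MAP65, -0.14 for cell plate formation, -0.19 for the division plane, -0.23 for spindle assembly and -0.11 for the checkpoint.

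No regulator of the cell cycle on these lists was called by limma. All 4 MYB3R genes were negative with a median of -0.28, and MYB3R1 measured 24.4 ± 7.42 TPM in libraries labelled rap2.12-2 and 31.8 ± 3.71 TPM in Col-0 (limma adjusted p = 0.84). The 16 mitotic cyclins and cyclin-dependent kinases had 12 negative, or 8 with median-of-ratios scaling, and a median of -0.036. CDKB2;1, a kinase of G2 and M phase, measured 49.0 ± 3.83 TPM in libraries labelled rap2.12-2 and 66.8 ± 7.66 TPM in Col-0, with groups that did not overlap and a limma adjusted p of 0.56. Of the 16, 2 had separate groups, both lower, against 12.7% of all genes separate in either direction and 6.03% lower. CYCB1;2 measured 63.5 ± 11.6 TPM in libraries labelled rap2.12-2 and 60.5 ± 8.92 TPM in Col-0. The 13 S phase genes had 10 negative and a median of -0.21. The 15 tubulins had 13 positive and a median of 0.094, against 8 positive and a median of 0.014 with nuclear genes rescaled, and 8 positive and a median of 0.013 with Col-0 replicate 1 left out. TUA6 measured 776 ± 46.5 TPM in libraries labelled rap2.12-2 and 647 ± 72.5 TPM in Col-0. With replicate 1 labelled rap2.12-2 left out, the median was -0.13 for the MYB3R genes, of which 3 were negative, 0.045 for the cyclins and their kinases, of which 6 were negative, -0.086 for S phase and 0.16 for the tubulins. With Col-0 replicate 1 left out, it was -0.40 for the MYB3R genes, -0.11 for the cyclins and their kinases and -0.27 for S phase.

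**Figure D5:**
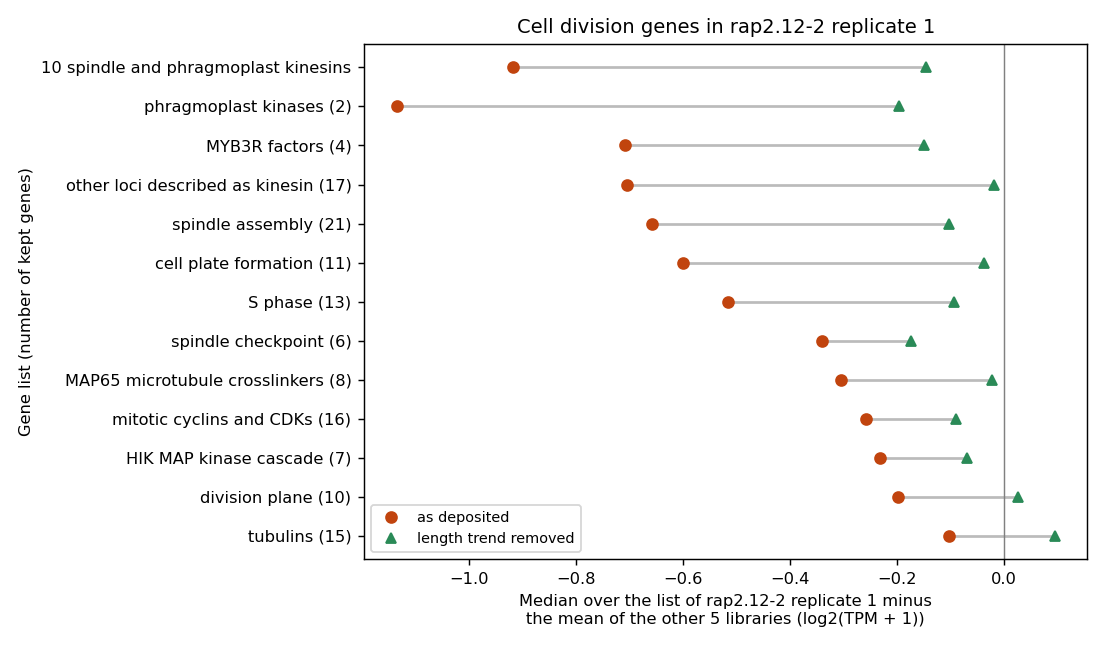
Median deviation of the library labelled rap2.12-2 replicate 1 from the mean of the other 5, log2(TPM + 1), for the 10 kinesins and the other gene lists, before and after removing the length trend. The 10 kinesins stand at -0.15 after the step and at -0.92 before it.

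The genes whose profile over the 6 libraries was most like the mean of the 10 kinesins were AT1G18270 (r = 0.9999), CUL4 (r = 0.9996), ZIGA4 (r = 0.9992), SDG25 (r = 0.9989) and LUH (r = 0.9986). These are Pearson correlations over 6 libraries, given with no test. All 5 genes were lowest in the library labelled rap2.12-2 replicate 1, and 1976 of 18619 genes (10.6%) had an r over 0.95. The 5 genes have transcripts of 2739 to 5364 bases, and AT1G18270 measured 8.56, 13.3 and 13.0 TPM in libraries labelled rap2.12-2, against 12.1, 13.4 and 13.8 TPM in Col-0.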

How the data were processed

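Total RNA of callus was extracted with TransZol Up and made into TruSeq RNA libraries, per the labels' protocols. The authors deposited TPM values for 31305 loci in 6 libraries, a unit scaled to transcript length and library total. TAIR10, RSEM 1.3.1 and STAR 2.7.10a appear in the submitters' processing notes, with no role given. TPM keeps no sequencing depth, so precision rests on the spread between 3 libraries a group. Reads shared by related genes may have been divided between them.

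All columns matched sample titles. Loci averaging 1 TPM or more over the 6 libraries were kept (18629, all 10 kinesins among them) and taken as log2(TPM + 1), a scale that understates changes of low genes. Groups were compared with limma 3.58.1 in R 4.3.3 (mean-variance trend, Benjamini-Hochberg over kept genes, threshold 0.05). Intervals are 95%. Pair ratios and RAP2.12 were also tested with exact permutation tests. Locus codes were matched to TAIR10.1 (RefSeq), which gave names, positions, lengths and the promoter sequences, and 88 loci did not match. Similar stretches were sought with BLAST 2.17.0, and coding sequences were aligned with Biopython 1.88. The length step subtracts, in each library, a lowess trend of deviation on transcript length, and so also removes a library's overall offset. The fit and that step were tested on simulated data. With the spreads of these libraries, the fit called 34% of simulated 2-fold changes and 78% of 4-fold changes, so a kinesin that is not called may still differ.

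The 10 kinesins and all gene lists were chosen with earlier results of these data known. Named beside them are RAP2.12, the list members with the highest level or smallest p, and the 5 genes of most similar profile, and not every gene of that rule is given values. Genes named for groups that did not overlap, and TES as the smallest deficit, were chosen after their values were seen. Correlations of deviations from group means were 0.20, 0.35 and -0.11 between libraries of the same replicate number. Between libraries of different numbers they ran from -0.34 to 0.23. These values do not settle whether the numbers pair the libraries, and the main fit leaves them unpaired. Alternatives were other pseudocounts, filters, scalings and variance models, a replicate block and libraries left out.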

Additional observations from a re-analysis of the deposited data

How the results depend on the processing

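Limma called 0 of the 10 kinesins in all 17 alternatives, with a lowest adjusted p of 0.39. Few genes of any kind were called: at most 0.204% of all genes (length trend removed), and 0 of 18629 without both libraries numbered 1. A count of 0 among 10 therefore carries little information. The median kinesin log2 fold change ran from -0.49 to 0.015 when 1 library was left out. The count of kinesins with separate groups, 1 with all libraries, was 3 with median-of-ratios scaling (18.2% of all genes), 3 with nuclear genes rescaled (18.8%), 8 without both libraries numbered 1 (37.3%), 4 with the length trend removed (19.3%), 5 with that trend removed and replicate 1 labelled rap2.12-2 left out (29.4%), and 1 to 5 when 1 library was left out. The count of 1 held without replicate 2 labelled rap2.12-2, Col-0 replicate 2 or Col-0 replicate 3. Among the 18629 genes tested, 1737 were separate and higher and 1968 separate and lower without replicate 2 labelled rap2.12-2. These numbers were 2412 and 1491 without Col-0 replicate 2, and 2550 and 1444 without Col-0 replicate 3. The cause of the moving count was not tested.

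Of 170 single kinesin values, 16 changed sign. Over single libraries left out, the log2 fold change ran from -0.39 to 0.0056 for ATK5, -0.29 to 0.14 for HIK, -0.064 to 0.22 for TES, -0.46 to 0.16 for PAKRP1, -0.46 to 0.025 for PAKRP1L and -0.60 to 0.039 for POK2. The range was -0.59 to -0.13 for ATK1, -0.69 to -0.32 for ATK4, -0.51 to -0.038 for PAKRP2 and -0.82 to -0.12 for POK1. The positive values of all but TES came with replicate 1 labelled rap2.12-2 left out, and TES was negative without replicate 2 or 3 of that line or Col-0 replicate 1. Without both libraries numbered 1, HIK was at 0.10 and PAKRP1 at 0.061. With the length trend removed, HIK was at 0.041, PAKRP1 at 0.0042 and POK2 at 0.0091, and with replicate 1 labelled rap2.12-2 left out as well, HIK was at 0.076 and PAKRP1 at 0.094. TES was at -0.030 with nuclear genes rescaled. RAP2.12 kept its direction but lost its call with no filter (1.48, limma adjusted p = 0.062), without the variance trend (1.48, 0.077), with a replicate block (1.48, 0.062) and without both libraries numbered 1 (1.45, 0.31), and it ran from 1.36 to 1.58 when 1 library was left out. With the replicate block, limma called 0 kinesins, and of all 18629 genes it called 2 as higher and 2 as lower. The block cannot move a fold change, since each replicate number occurs in both genotypes, and separate groups depend on the values alone. The median of -0.31 and the 1 kinesin with separate groups were therefore bound to stay. The median interval width was 0.88 with the block and 1.18 without it. The lowest unadjusted limma p values with the block were 0.043 for ATK4 (interval -1.10 to -0.022, adjusted p = 0.50) and 0.058 for ATK1 (adjusted p = 0.54). TPM keeps no depth, so the counting error of the low kinesins ATK4 and PAKRP1 is unknown.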

Other observations

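Other loci whose annotated description holds the word kinesin were compared in the same way, and whether each encodes a motor was not checked. Light chains and kinesin-interacting or kinesin-binding proteins were left out. Of 19 such loci, 17 were tested and limma called 0, against 0.0698% of all genes. Log2 fold changes were negative for 14, with a median of -0.24. Of the 17, 14 were lowest in the library labelled rap2.12-2 replicate 1, where their median deviation from the other 5 libraries was -0.70, and -0.018 after the trend with transcript length was removed. ATK2 measured 52.4 ± 13.5 TPM in libraries labelled rap2.12-2 and 61.4 ± 6.79 TPM in Col-0, and ATK3 measured 49.7 ± 8.87 TPM in libraries labelled rap2.12-2 and 49.8 ± 4.95 TPM in Col-0 (SD, n = 3 each). ARK2, a kinesin with armadillo repeats, measured 13.6 ± 3.50 TPM in libraries labelled rap2.12-2 and 18.7 ± 2.31 TPM in Col-0, with a limma adjusted p of 0.79. AT4G26410, of 1249 bases, ran the other way: it measured 71.4 ± 15.5 TPM in libraries labelled rap2.12-2 and 52.4 ± 9.62 TPM in Col-0, with replicate 1 labelled rap2.12-2 at 1.58 times the mean of the other 5 (limma adjusted p = 0.76).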
